A study of Mus musculus with 123 samples.

Results

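The clustered protocadherin genes lie side by side in 3 clusters, alpha, beta and gamma, on mouse chromosome 18. The members described here are the peaks of 3 deposited peak lists, ES1, ES2 and ES3, that overlap chr18:37080000-38010000 of the mm9 build, a window of 930 kb that holds the alpha, beta and gamma clusters in this order from low to high coordinate. There are 64 such peaks of 60226 in all: ES1 has 30 among its 26292 peaks, ES2 24 among 21543 and ES3 10 among 12391. The lists belong to a series that profiled histone H3 lysine 4 methylation in single mouse cells by a droplet form of chromatin immunoprecipitation sequencing, with 86 libraries of H3K4me2 and 37 of H3K4me3 from V6.5 embryonic stem cells grown with serum and LIF, embryonic fibroblasts and the blood progenitor line EML. No label ties a list to a mark, a library or a number of cells, so the lists are treated as 3 sets of stem cells by their names. How the sets were formed is unknown.

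Clustered protocadherins are cell adhesion proteins best known from neurons, where each cell uses a few of the many isoforms and the combination gives it a surface identity. In the alpha and gamma clusters each variable exon has its own promoter and is spliced to constant exons that the whole cluster shares, while each beta gene is a single exon with its own promoter. The C-type genes at the end of the alpha and gamma clusters are known to be used more uniformly than the others. Methylation of H3K4 marks active and poised promoters and, as H3K4me2, enhancers too, so a peak list can show which stretches of such an array carry the mark. A RefSeq gene table for GRCm38.p6 lists 14 alpha genes (Pcdha1 to Pcdha12, Pcdhac1 and Pcdhac2), 22 beta genes (Pcdhb1 to Pcdhb22) and 22 gamma symbols (12 of type A, 7 of type B and the 3 C-type genes Pcdhgc3, Pcdhgc4 and Pcdhgc5). In that order Slc25a2, a mitochondrial carrier, and Taf7, a subunit of the general transcription factor TFIID, stand between the beta and gamma clusters, and Diaph1, a formin that nucleates actin, follows the gamma cluster. That build differs from mm9, so its coordinates were not used. No peak was assigned to a gene, and the borders between the clusters were not placed. Positions are given as distance from the low-coordinate edge of the window.

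Nearly all of the covered sequence lay toward the high-coordinate end of the window, where the gamma cluster lies. No cluster border was placed, so this end can also hold sequence outside the gamma cluster. The last 310 kb of the window, the highest of 3 equal parts, held 26 of the 30 ES1 peaks, 22 of the 24 ES2 peaks and 9 of the 10 ES3 peaks. It held 93.0%, 94.9% and 94.0% of the window's covered bases for ES1, ES2 and ES3. There ES1 peaks covered 19.6% of the sequence, ES2 peaks 14.0% and ES3 peaks 4.36%. The 3 lists thus shared the position of the marked part and differed in how much of it was covered.

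**Figure D1:**
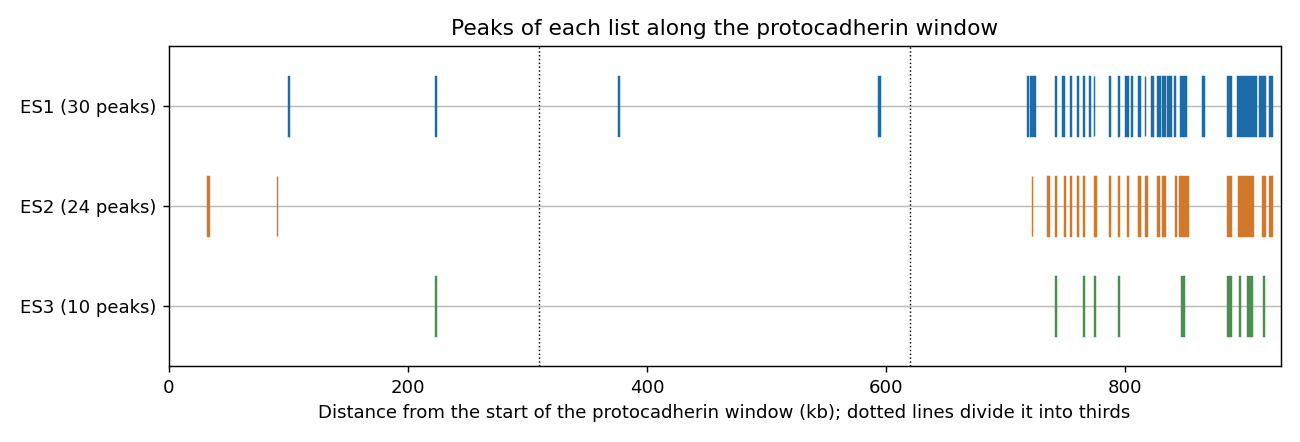
Peaks of ES1, ES2 and ES3 along the 930 kb window (x axis, kb from the low-coordinate edge; 1 row per list; each bar is a peak, with a thin outline that keeps narrow peaks visible). The 26, 22 and 9 peaks of the last 310 kb crowd to the right of the second dotted line, and the first 620 kb hold 4, 2 and 1.

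The low-coordinate 620 kb, which start at the alpha end, carried few peaks. All 7 are named here, because they are so few. In ES1 they were chr18:37179710-37180478 with 14 reads, chr18:37302938-37303969 with 13, chr18:37456076-37456721 with 10 and chr18:37673301-37675420 with 23. The last of these was 2120 bp wide, and the other 3 were between 646 and 1032 bp. In ES2 they were chr18:37112262-37114087 with 16 reads and chr18:37170295-37170795 with 13. In ES3 the single peak was chr18:37302982-37303848, with 13 reads in 867 bp. It fell inside the second ES1 peak and made the 1 place in these 620 kb that more than 1 list called. The reads are counts recovered from the authors' scores for an inner interval of each peak, and the exact Poisson 95% interval is 6.92 to 22.2 for 13 reads and 14.6 to 34.5 for 23.

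Long stretches of the window held no peak. In ES1 the longest ran for 217 kb, from 377 to 593 kb, between 2 of the low-coordinate peaks, and the fourth peak ended at 595 kb, before the next at 718 kb. In ES2 it ran for 631 kb, from 90.8 to 722 kb, and in ES3 for 518 kb, from 224 to 741 kb. Between 310 and 620 kb ES1 had 2 peaks, and ES2 and ES3 had 0. Gaps of this length stood at many other places, though they were a small part of all gaps. ES1 had 2048 gaps at least as long among 26272, ES2 824 among 21523 and ES3 1001 among 12371. Among 4241 consecutive genome windows of 620 kb the median was 2 peaks for ES1 and ES2 and 1 for ES3, and 61.2%, 55.2% and 59.8% held as few as the 4, 2 and 1 seen here. The low-coordinate part of the array was thus sparsely marked, like many stretches of the genome, and a place without a peak is not shown to be unmarked at this depth. The smallest chromosome 18 peaks held 8 reads (ES1 and ES3) or 9 (ES2).

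The marked part began at 718 kb. ES1 opened it with a peak of 1114 bp at chr18:37797853-37798966, with 15 reads, followed by a peak of 3751 bp at chr18:37800815-37804565 with 30 reads (20.2 to 42.8). That was the most in an inner interval of any ES1 peak in the window. Its inner interval was the whole peak, and reads outside the shorter inner intervals of other peaks are unknown. ES2 had 10 reads at chr18:37802009-37802509, inside the second of these, and a peak of its own at chr18:37815000-37816162 with 14 reads. ES3 had no peak between 224 and 741 kb. At 741 kb all 3 lists called a narrow peak at nearly the same start: chr18:37821384-37822404 in ES1 with 18 reads, chr18:37821376-37822258 in ES2 with 20 and chr18:37821410-37822145 in ES3 with 18. The starts lay within 34 bp of each other.

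From there a row of narrow peaks ran toward higher coordinates. In the ninth of 10 equal parts of the window, from 744 to 837 kb, ES1 had 16 peaks, ES2 had 12 and ES3 had 3. It opened with chr18:37826872-37829090 in ES1 (24 reads), and near its end stood chr18:37910973-37913317 in ES1 (23 reads), which met chr18:37911285-37913355 in ES2 (20 reads). The ES1 starts followed each other at a median distance of 5.26 kb (quartiles 4.81 and 5.77 kb, range 4.32 to 12.8), against 19.6 kb over the whole ES1 list. Of the 15 ES1 distances 14 were between 3 and 10 kb, which 26.9% of all ES1 distances were. The ES2 starts were 7.28 kb apart (range 4.64 to 12.6), against 22.5 kb over the ES2 list. Of the 11 ES2 distances 9 were between 3 and 10 kb, against 25.4% of all ES2 distances. The part was described because it is crowded, and 16 or 12 starts in 93 kb must lie close together. These distances therefore restate the peak count and are no separate result. The band of 3 to 10 kb was not among the planned measures. The ES1 peaks of the row were narrow and dense in reads. Their median width was 885 bp (500 to 2558), and 9 of 16 were under 1 kb. Their median score was 24.7, against 16.5 for the 860 ES1 peaks of chromosome 18. The score is the authors' value and was read as the read density of the inner interval relative to that of the chromosome. For the same reads a shorter inner interval gives a higher score. The 860 peaks were not matched for width (median 1515.5 bp), so the higher score is not separate from the narrowness. The highest score of the window belonged to this row, 46.2 at chr18:37874378-37874891, where 20 ES1 reads fell in 501 bp.

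**Figure D2:**
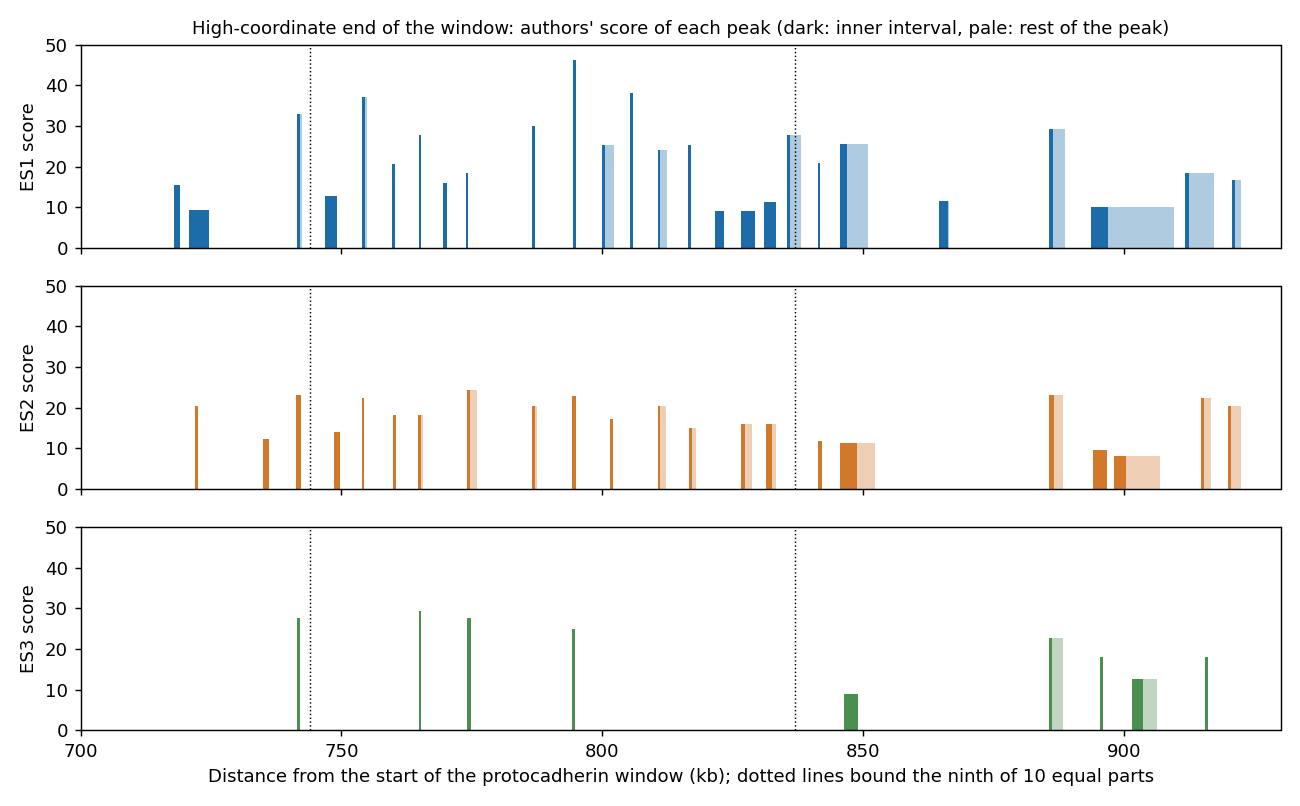
The authors' score of each peak (y axis, no unit) against its position (x axis, kb from the low-coordinate edge) at the high-coordinate end of the window, for ES1, ES2 and ES3 from top to bottom. Bars are as wide as the peak, dark over the inner interval; between the dotted lines 16 ES1, 12 ES2 and 3 ES3 peaks start, and past them peaks are wider, up to 15843 bp in ES1.

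The row was the densest run of peaks in ES1 by number of peak starts, but not by covered length. Of 28344 consecutive genome windows of 93 kb, 703 had as much ES1 coverage as the ninth part. As much ES2 coverage stood in 736 of them and as much ES3 coverage in 3705. Stretches of 93 kb that begin at a peak held a median of 4 peak starts over the ES1 list. The fullest stretch of the array, which began at 754 kb, held 17, and no stretch elsewhere in the genome held more than 14. In ES2 the fullest stretch of the array held 13 starts, and 11 separate places elsewhere held as many, up to 15. In ES3 it held 5, as did 734 other places. This measure was chosen after the peaks were seen, and it is a description. It also turned on which peaks are kept. With each list shortened to the 12391 peaks with the most reads, ES1 had 7 starts and ES2 5, and 163 and 744 places elsewhere had as many. With the 12391 highest scores, ES1 had 14 and ES2 13, and the fullest stretches elsewhere had 10 and 11. The ES1 peaks of the row held between 8 and 24 reads, with a median of 12.5, against a median of 16 over the ES1 list.

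**Figure D3:**
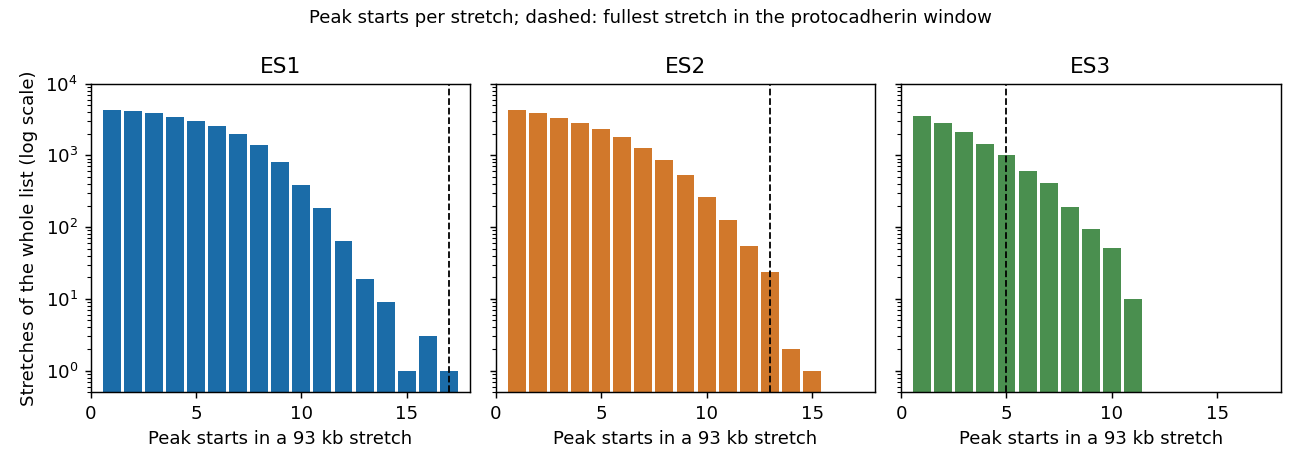
Number of 93 kb stretches (y axis, log scale) by how many peak starts they hold (x axis), 1 panel per list; the dashed line is the fullest stretch of the protocadherin window. It stands at 17 in ES1, beyond the most elsewhere of 14, at 13 in ES2 and at 5 in ES3.

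The spacing in the row was fairly even, by a measure that was not planned either. The coefficient of variation of the distances was 36.0% in ES1 and 33.4% in ES2. In the 54 other genome windows of 93 kb with at least 10 ES1 peaks it had a median of 49.5% (31.8 to 113), and 3 of them were as even. In the 45 such windows of ES2 the median was 55.4%, and 2 were as even. Peaks in those windows were wider, with a median of window medians of 1981 bp in ES1 and 1925 bp in ES2, against 885 and 1115.5 bp in the row. The windows were matched neither for peak number nor for width, so the evenness cannot be told apart from the crowding and narrowness of the row.

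Which list marked which element of the row can be read from merged regions. Touching or overlapping peaks of the 3 lists gave 33 regions over the window, 16 of them in the ninth part. ES1 called all 16, ES2 12 and ES3 3. Among them 9 were marked by ES1 and ES2 without ES3, 4 by ES1 alone and 3 by every list. The 4 of ES1 alone started at 769, 805, 822 and 835 kb, with 11, 17, 13 and 12 reads, and lay between elements that ES2 shared. The ES3 peaks of the row were chr18:37844766-37845265 with 13 reads, chr18:37854048-37854827 with 19 and chr18:37874242-37874741 with 11. At the first of these ES1 had 12 reads and ES2 9, at the second 8 and 16, and at the third 20 and 15. Over all 31580 merged regions of the series, 23.8% were in ES1 and ES2 without ES3, 27.3% in ES1 alone and 26.2% in every list. The 4 and the 3 of 16 were near these shares, and the 9 of 16 were above theirs. The part was described because it is crowded in ES1 and ES2, so these shares are not separate from that choice.

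**Figure D4:**
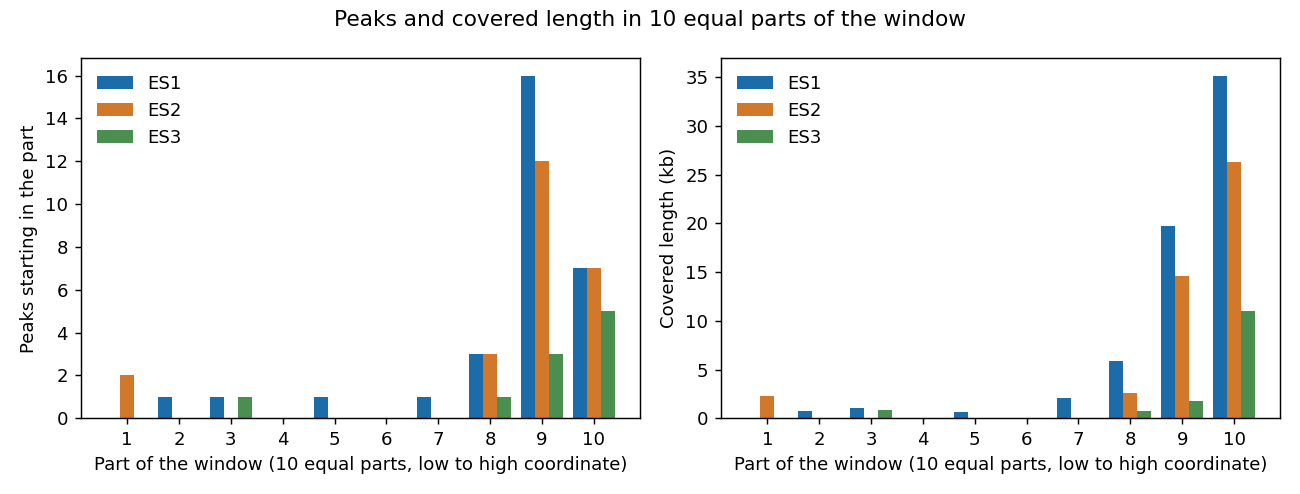
Peaks that start in each of 10 equal parts of the window (left) and kb covered (right), part 1 being the low-coordinate end; bars are ES1, ES2 and ES3. Peak number is highest in part 9 in ES1 and ES2 (16 and 12), covered length in part 10 in all 3 lists (35.2, 26.3 and 11.0 kb).

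Past 837 kb stood the widest peaks of the window. In the last of the 10 parts ES1 and ES2 had 7 peaks each and ES3 had 5, and coverage reached 35.2, 26.3 and 11.0 kb of its 93 kb. Of its 7 merged regions, 4 were called in all 3 lists, 2 in ES1 and ES2, and 1 in ES1 alone, numbers too small to set against the series' shares. The first wide peak stood at chr18:37925654-37930939 in ES1, 5286 bp wide, with 27 reads in an inner interval of 1217 bp. In ES2 it was chr18:37925491-37932221, 6731 bp wide, with 37 reads in an inner interval of 3318 bp. These were the most reads in an inner interval of any ES2 peak in the window. In ES3 it was chr18:37926415-37928953, with 20 reads over its whole 2539 bp. Another followed at chr18:37965569-37968665 in ES1 with 21 reads, chr18:37965548-37968239 in ES2 with 22 and chr18:37965657-37968387 in ES3 with 10. ES1 alone called chr18:37944449-37946371 between them, with 19 reads.

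The widest domain of the array lay near its end. In ES1 it was a single peak of 15843 bp at chr18:37973656-37989498, of which the inner interval of 3290 bp held 29 reads. ES2 divided the same stretch into chr18:37974070-37976807 with 26 reads and chr18:37978086-37986983, 8898 bp wide with 18 reads in an inner interval of 2235 bp. ES3 divided it into chr18:37975410-37975910 with 8 reads and chr18:37981612-37986348, 4737 bp wide with 22 reads in an inner interval of 1959 bp. Reads outside the inner intervals are unknown. Next came chr18:37991679-37997277 in ES1, 5599 bp wide with 11 reads in an inner interval of 688 bp. It met chr18:37994773-37996657 in ES2 with 11 reads and chr18:37995508-37996008 in ES3 with 8. The last peaks inside the window were chr18:38000613-38002523 in ES1 with 9 reads and chr18:37999978-38002520 in ES2 with 10. They ended 7.48 kb before the edge, and the nearest peaks outside it started 9.48 kb past it in ES1 and 6.24 kb in ES2. On the other side no list had a peak within 117 kb before the window.

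All 3 lists called 8 of the regions, which lay in the last 310 kb, and in most of these the intervals of the read densities overlapped. The region at 794 kb had 39.9 reads per kb of inner interval for ES1 (24.4 to 61.7). ES2 had 22.5 (12.6 to 37.1) and ES3 22.0 (11.0 to 39.4), so these intervals overlapped. The region at 845 kb differed more, with 22.2 reads per kb for ES1 (14.6 to 32.3). ES2 had 11.2 (7.85 to 15.4) and ES3 7.88 (4.81 to 12.2). It was the only one of the 9 regions shared by ES1 and ES3 whose intervals were apart, and its inner intervals differed in length, 1217 bp in ES1 and 2539 bp in ES3. ES1 and ES2 met in 20 regions and ES2 and ES3 in 8, and none of these had intervals apart. Relative to the read density of chromosome 18, the median ratio over shared regions was 1.22 for ES1 over ES2, 1.02 for ES1 over ES3 and 0.903 for ES2 over ES3. These intervals cover counting error only, and a region enters only where its peaks passed the threshold in both lists. Each inner interval starts at the start of its own peak, so densities of 1 region can come from different sequence in each list. In the region at 912 kb the ES1 inner interval was the first 688 bp from base 37991679. The ES2 and ES3 peaks there began at bases 37994773 and 37995508. The densities and ratios therefore do not compare the same bases.

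**Figure D5:**
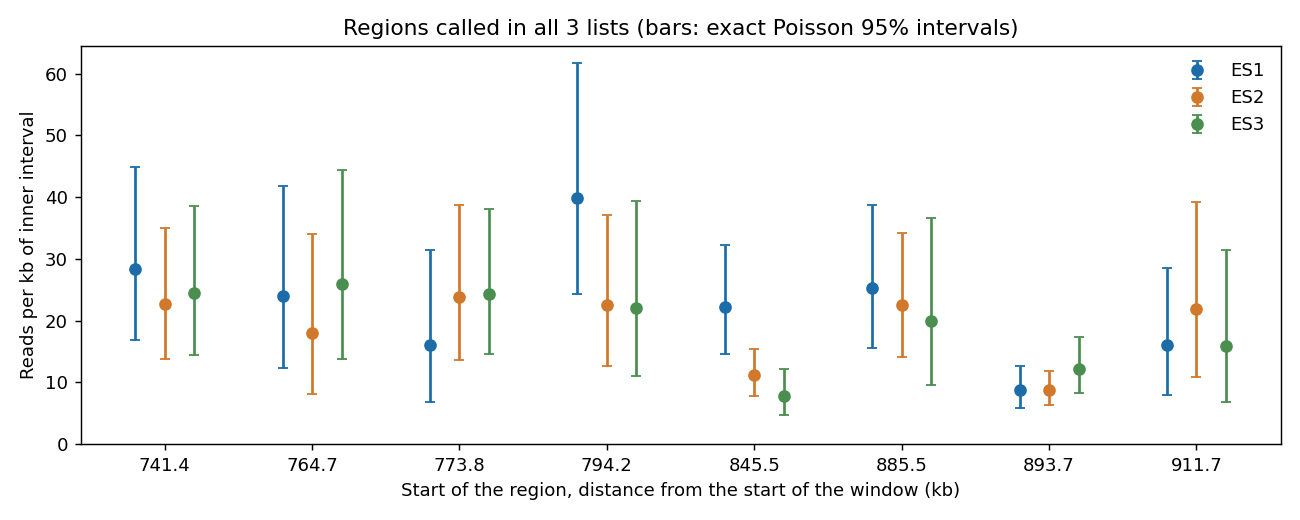
Reads per kb of inner interval (y axis) in the 8 regions called in all 3 lists, by their start (x axis, kb from the low-coordinate edge); points are ES1, ES2 and ES3 and bars are exact Poisson 95% intervals. The intervals overlap except at 845 kb, where ES1 (22.2) lies above ES3 (7.88). Inner intervals of a region can cover different sequence in each list.

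Over the whole window the lists overlapped about as they did elsewhere. All 10 ES3 peaks overlapped an ES1 peak by at least 1 bp (100%, exact binomial interval 69.2 to 100), against 86.6% of the whole ES3 list, and 9 of 10 overlapped an ES2 peak (90.0%, 55.5 to 99.7), against 77.1%. Of the ES2 peaks 21 of 24 overlapped ES1 (87.5%, 67.6 to 97.3), against 78.1%, and 9 of 24 overlapped ES3 (37.5%, 18.8 to 59.4), against 42.7%. Of the ES1 peaks 20 of 30 overlapped ES2 (66.7%, 47.2 to 82.7), against 61.1%, and 9 of 30 overlapped ES3 (30.0%, 14.7 to 49.4), against 37.7%. Each interval includes the share of the whole list, so the overlap pooled over the window was near its background. Shares by part of the window and by width rest on fewer peaks and were given no intervals. A difference between parts is therefore not shown. In the last 310 kb 21 of 22 ES2 peaks met ES1 (95.5%) and 20 of 26 ES1 peaks met ES2 (76.9%). In the first 620 kb these were 0 of 2 and 0 of 4. With ES3 the last 310 kb had 30.8% of ES1 peaks and 40.9% of ES2 peaks, not above the lists. Of peaks under 1 kb, 9 of 10 in ES2 met an ES1 peak, against 60.4% over the ES2 list, and 8 of 12 in ES1 met an ES2 peak, against 40.5%. The exact interval for 9 of 10, 55.5 to 99.7, includes 60.4%. With ES3 the same peaks were near the list, 3 of 10 for ES2 against 25.6% and 3 of 12 for ES1 against 20.2%. ES3 peaks under 1 kb met ES1 in 7 of 7 cases, against 76.2%, and ES2 in 6 of 7, against 64.4%. When 50% of both peaks had to be shared, overlap fell to 50.0% for ES3 in ES1 and in ES2, 50.0% for ES2 in ES1, 20.8% for ES2 in ES3, 40.0% for ES1 in ES2 and 16.7% for ES1 in ES3. With lists shortened to 12391 peaks by reads, 60.0% of ES3 peaks met ES1 and 70.0% of ES2 peaks met ES3.

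Of the 33 merged regions, 8 were in all 3 lists (24.2%, against 26.2% of the regions of the series) and 12 in ES1 and ES2 (36.4%, against 23.8%). There was 1 in ES1 and ES3 (3.03%, against 4.95%), 9 were in ES1 alone (27.3%, against 27.3%) and 3 in ES2 alone (9.09%, against 12.8%). No region was in ES3 alone, against 2.97% of all 31580 regions of the series. An approximate upper limit, 3 of 33, is a share of 9.09%. The 9 ES1 peaks that ES3 also called held a median of 18 reads, and the 21 others 13. For ES2 the medians were 18 for 9 peaks and 11 for 15. Between ES1 and ES2 there was no such order: ES1 peaks that ES2 also called had a median of 14.5 reads and the others 13.5, and ES2 peaks that ES1 also called had 11 and the others 14. The same medians over the whole lists are not given, so none of this is shown to be particular to the array. Some overlapping peaks of 2 lists began close together, but most did not. Starts lay within 100 bp of each other in 7 of 21 pairs of ES1 and ES2 peaks, 4 of 10 of ES1 and ES3 and 4 of 9 of ES2 and ES3. Over the whole lists this held for 17.0%, 14.7% and 15.3% of pairs, which were not matched for width. Peaks under 1 kb were 40.0%, 41.7% and 70.0% of the array's ES1, ES2 and ES3 peaks, against 26.3%, 25.9% and 28.3% of the lists. Narrow peaks that overlap must start close together. The element at 827 kb began at base 37906649 in both ES1 and ES2, with 20 and 11 reads.

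Against the rest of the genome the array as a whole was well marked but not extreme. ES1 peaks covered 65.3 kb of it (7.02%), ES2 peaks 45.8 kb (4.92%) and ES3 peaks 14.4 kb (1.55%), against 2.43%, 1.77% and 0.865% of all chromosomes together. Inner intervals alone covered 34.2, 24.4 and 9.38 kb, and a window narrower by 50 kb on each side held 38.9, 25.2 and 5.92 kb and only 6 of the ES3 peaks. Of 2824 consecutive windows of 930 kb, 11.2% had as much ES1 coverage, 11.6% as much ES2 coverage and 18.9% as much ES3 coverage. The stretches of 930 kb on either side of the array held more peaks in every list: ES1 had 33 before and 40 after it, ES2 35 and 33, ES3 13 and 22. Within the array most peaks stood in 310 kb. Only 10 of 8495 windows of 310 kb held 26 or more ES1 peaks. As many ES2 peaks as the 22 of the last 310 kb stood in 30 windows, and as many ES3 peaks as the 9 in 334.

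ES1 had 3.00 times as many peaks on the array as ES3, against 2.12 times over the whole lists, and 1.25 times as many as ES2, against 1.22. ES3 peaks made up 25.0% of the ES1 and ES3 peaks on the array (exact binomial interval 12.7 to 41.2), and 32.0% over the lists, inside that interval. The difference between ES1 and ES3 changed with the peaks kept. With each list shortened to the 12391 peaks with the most reads, ES1 had 12 peaks on the array, ES2 10 and ES3 10, and with the 12391 highest scores 21, 20 and 10. With the 6195 highest scores the numbers were 16, 14 and 8. At most 12 reads stood behind 12 of 30 ES1 peaks, 12 of 24 ES2 peaks and 4 of 10 ES3 peaks. There is 1 list per name, so no difference between lists has a test, and the lists rested on 78396 (ES1), 88948 (ES2) and 80194 (ES3) reads of chromosome 18.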

How the data were processed

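The authors deposited 3 peak lists of the whole series with no header. Reads were aligned with Bowtie to mm9, per the submitters' processing notes. The sources used here name neither the peak caller nor the libraries behind a list. Each deposited peak has a start, an end, an inner interval and a score with no unit. Multiplied by its inner length, each score gave whole steps of 1 size per chromosome and list, in 100% of peaks (tolerance 0.001). The steps were taken as reads, which assumes that 1 step is 1 read. Whether duplicates were removed is unknown. Recovery and interval arithmetic returned the known answers on simulated data, made by the same formula.

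Peaks overlapping the window by at least 1 bp are the members. The window was divided into 3 and 10 equal parts. Named peaks are all in ES3, the 5 with the most reads, the 3 widest, the first and the last in ES1 and ES2, and all regions called in all 3 lists. The 7 peaks of the low-coordinate 620 kb and the other peaks given were chosen after their values were seen. The members and measures were chosen with earlier results of these data known. BED starts were written 1-based. Intervals are exact (Clopper-Pearson or Poisson, 95%) and cover counting error only. The upper limit for regions of ES3 alone is approximate, 3 over the number of regions. Python 3.11.15 and scipy 1.17.1 were used.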

Additional observations from a re-analysis of the deposited data

How the results depend on the processing

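Counted by peaks in place of covered bases, the last 310 kb held 86.7% (ES1), 91.7% (ES2) and 90.0% (ES3). The last 3 of 10 parts held the same shares of covered bases as the last 310 kb. That alternative could not differ, since no list had a peak between 620 and 651 kb. Peak numbers depended on the threshold. With the 12391 peaks with the most reads, ES1 had 12 and ES2 10, and with the 6195 highest scores ES1 had 16 and ES2 14. The fullest stretch held 7 starts in ES1 and 5 in ES2 by reads. Narrowing the window by 50 kb on each side left 6 ES3 peaks and covered lengths of 38.9 (ES1), 25.2 (ES2) and 5.92 kb (ES3), since wide peaks lie within 50 kb of its edge. Inner intervals alone covered 34.2, 24.4 and 9.38 kb. Requiring 50% of both peaks gave overlaps of 40.0% for ES1 in ES2, 50.0% for ES2 in ES1, 50.0% for ES3 in ES1 and 50.0% for ES3 in ES2. With lists shortened by reads, 70.0% of ES2 peaks met ES3 and 60.0% of ES3 peaks met ES1. Across 72 alternative values, 53 remained inside their interval or a factor of 1.5 and 19 moved further. Whether a result reversed was not checked. Shortening by score to 12391 peaks and the alternatives for the fullest stretch were chosen after seeing the data. No paired analysis was possible because no list has a replicate number, and with 1 list per name none could be left out in turn.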

Other observations

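Other places held many peaks too, more than the array in ES2 and ES3. The fullest 93 kb stretch outside the array began at base 137555613 of chromosome 1 in ES1, with 14 peak starts, at base 52106764 of chromosome 6 in ES2, with 15, and at base 80726752 of chromosome 10 in ES3, with 11. The genes at these places were not determined, because no mm9 annotation was used.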
